A study of Mus musculus with 4 samples.

Results

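The response of wild-type aortic smooth muscle cells to low-density lipoprotein (LDL) was read as the difference between 1 array of LDL-treated cells and 1 array of control cells, 2 of the 4 arrays of the series. For each probe the log2 processed signal was set relative to the 75th percentile of its array, so that a normalised level of 0 is that percentile, and the control level was subtracted from the LDL level. A gene was counted as measured when the probe that stands for it was well above background on both wild-type (WT) arrays. This held for 12978 of 21367 named genes, and for 25281 of 55679 probes.

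All cells were vascular smooth muscle cells of C57BL/6J mice, grown from 5 aortas and used at passages 12 to 16. For 24 h before harvest their medium held 5% lipoprotein-deficient serum (LPDS). The WT LDL group received LDL at 150 µg/ml cholesterol together with bovine lipoprotein lipase at 0.1 U/ml, and the WT control group received no LDL. The sources used here leave unsaid if the control cells also had lipase, so the effects of lipoprotein and lipase cannot be told apart. The same treatments were given to cells lacking LAMP-2A (L2AKO), the lysosomal receptor of chaperone-mediated autophagy, and these values are set beside the WT values. RNA of each group was pooled in triplicate before hybridisation, per the series' design text. With 1 array a group no difference below has a replicate error or a p-value, and the number of arrays limits the precision.

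Cells in serum without lipoproteins make their own cholesterol. The transcription factors SREBP-1 and SREBP-2 are held in the endoplasmic reticulum by INSIG proteins while sterols are plentiful, and are released to activate genes of sterol and fatty acid synthesis when sterols are scarce. The interferon response is a separate program. Interferon receptors signal through JAK kinases to a complex that holds STAT2 and IRF9 and binds the interferon-stimulated response element (ISRE) of antiviral genes. Acute phase genes, complement and chemokines are induced by inflammatory cytokines, many of them through NF-kappa-B, and glutathione S-transferases conjugate electrophiles such as products of lipid peroxidation.

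Both WT arrays lay on 1 slide, and their 75th percentiles were signals of 318.76 (control) and 370.56 (LDL). No spot was saturated, and 47.2% and 48.4% of probes were well above background. Among 240 probes with repeated spots, the SD between spots was 0.05 on either array, which gives 0.07 for a difference. The scanner software's own error of a difference was 0.20 at the median. After scaling, 9 spike-in controls differed by -0.50 to 0.15 between the arrays with a median of -0.34, and without it by -0.28 to 0.36. These figures describe spots and labelling, not cultures. The smooth muscle markers Acta2, Tagln, Cnn1 and Smtn were above background on both WT arrays, and Myh11, Lmod1, Des and Myocd were above background on neither. The scaled levels of the 8 smooth muscle markers summed to 7.64 in control and 7.46 with LDL on the log2 scale, and without the scaling to 15.96 and 15.99, so the direction of this small gap turns with the scaling. Of 8 fibroblast markers 7 were above background on each array, with scaled sums of 8.99 and 8.77 (17.31 on both arrays without scaling). All 7 were below 0 with LDL (median -0.24, highest -0.04), where the median of all measured genes was -0.05. At 1.5-fold 2 of the 7 were lower, against 2.46% of all measured genes. Without the scaling every difference lies 0.22 higher, so the smallest of the 7 turns sign with it. Of 7 macrophage markers 3 were above background in control and 4 with LDL (scaled sums of 4.94 and 4.76, and 13.26 and 13.29 without scaling), and Adgre1, Ptprc and Mrc1 were on neither. Of 8 mesothelial and epithelial markers 7 were above background in control and 6 with LDL (scaled sums of 5.99 and 5.88, and 14.31 and 14.42 without scaling). Of 7 endothelial markers 3 were above background on each array (scaled sums of 2.52 and 2.20). In control 3 of 7 bone and cartilage, 2 of 7 lymphocyte and 1 of 5 adipocyte markers were above background. In bulk RNA, fewer cells of a type and less RNA per cell cannot be told apart.

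The response was uneven. With LDL, 32 genes were higher by 2-fold or more (0.247% of those measured) and 133 were lower (1.02%). At 1.5-fold the counts were 162 higher (1.25%) and 319 lower (2.46%), and these 2 shares are the background for the gene lists below, whose members are called at 1.5-fold. The median difference of all measured genes was -0.05 with an SD of 0.30. Without the scaling every difference would lie 0.22 higher, which leaves the groups with large differences in place and turns the sign of small ones. Of the 133 lower genes, 81 were on at least 1 of 45 gene lists, against 7 of the 32 higher genes. The lists hold 1222 genes, of which 1016 were among the 12978 measured. They were chosen with earlier results of these data known, so the overlap is partly built in and tests nothing. The higher genes were mostly dim: 27 of 32 had a mean level in the lowest 25% of measured genes, as did 62 of the 133 lower genes. After a normexp background correction, which pulls dim probes together, 18 of the 32 and 110 of the 133 were still at least 1.5-fold different.

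**Figure D1:**
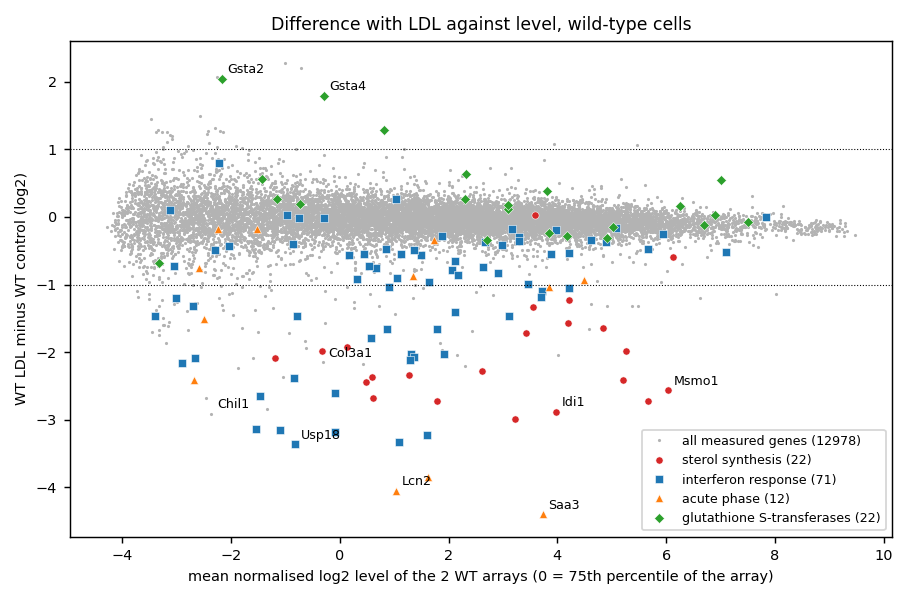
Each point is 1 of 12978 measured genes, by its mean normalised log2 level on the WT arrays and its log2 difference (WT LDL minus WT control), with dotted lines at 2-fold. Sterol synthesis genes such as Idi1 (-2.88) were lower at middle and high levels, interferon response and acute phase genes extended to -3.36 (Usp18) and -4.39 (Saa3), and the glutathione S-transferases held the points above 1 for Gsta2, Gsta4 and Gsta3.

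The mevalonate arm, which turns acetyl-CoA into isoprenoid diphosphates, was lower with LDL in 8 of 9 measured genes, with a median of -2.08. Hmgcs1, the synthase of the early pathway, had a level of 6.41 in WT control and 4.0 with LDL, which is 5.34-fold lower. Fdps, which makes farnesyl diphosphate, had 7.02 and 4.30, and Idi1, the isopentenyl diphosphate isomerase, had 5.42 and 2.54. Mvd (-2.71), Acat2 (-1.98), Mvk (-1.65) and Pmvk (-1.58) were lower as well. Ggps1, which uses farnesyl diphosphate to make geranylgeranyl diphosphate, was the exception with levels of 3.58 and 3.60. Where a second probe of a gene was measured on both arrays it gave a like difference, -1.77 for Mvk and -1.54 for Pmvk. The dim second probe of Hmgcs1 was above background in control only.

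From squalene to cholesterol, 13 of 13 genes were lower at 1.5-fold and 12 of them at 2-fold, with a median of -2.27. Msmo1, a sterol C4-demethylase, had 7.31 in control and 4.75 with LDL (5.89-fold lower). Sqle, the squalene epoxidase, had 6.24 and 4.27. Lss, the lanosterol synthase, differed by -2.33. Genes of the later demethylation and reduction steps lay close to it: Hsd17b7 at -2.68, Cyp51 at -2.44, Nsdhl at -2.37 and Tm7sf2 at -2.27. The smaller differences belonged to Sc5d (-1.33), Erg28 (-1.23) and Ebp, the sterol isomerase (-0.59, from 6.42 to 5.83). Ebp was the member nearest the 1.5-fold line, and at -0.47 after normexp it was short of it. Mmab, a cobalamin adenosyltransferase that is the neighbour of Mvk on chromosome 5, was on no list and differed by -1.26.

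**Figure D2:**
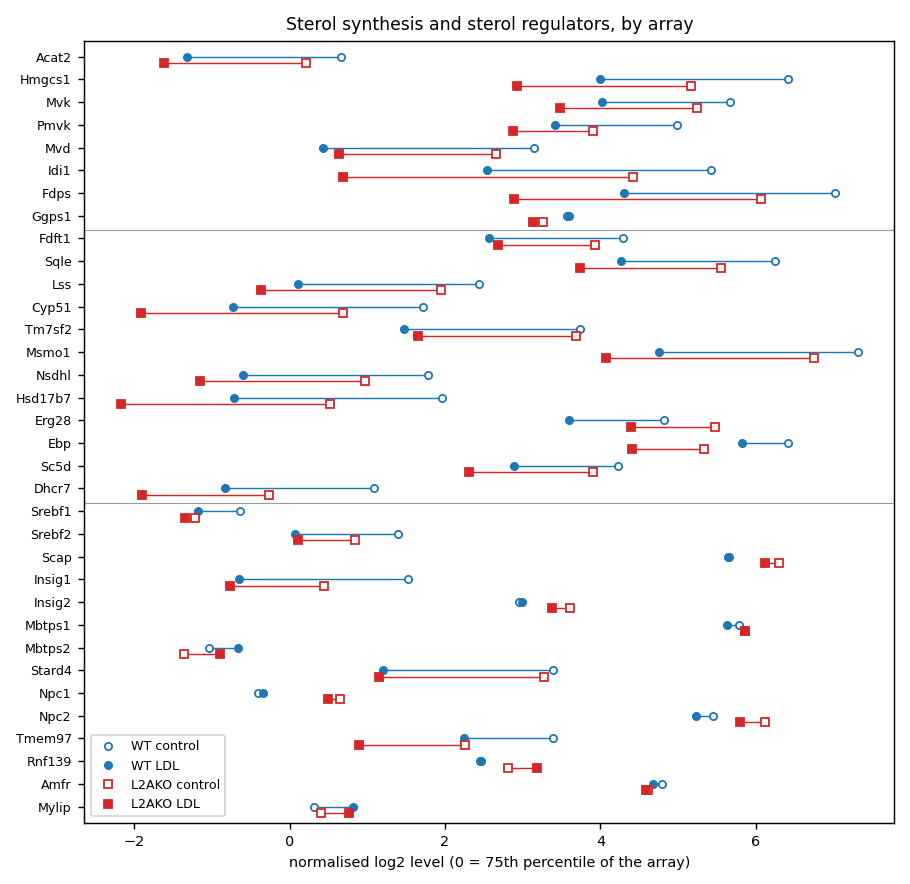
Normalised log2 level of sterol genes named in the text or on the same lists, on each of the 4 arrays, with lines joining control (open) and LDL (filled) of WT cells (circles) and L2AKO cells (squares); grey lines part the mevalonate arm, squalene to cholesterol, and regulators. In WT, Ggps1 is the 1 enzyme whose circles lie together (3.58 and 3.60), and among regulators Insig1, Stard4, Srebf2 and Tmem97 were lower with LDL.

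The promoters of the lower sterol genes are shown for the letters they share. RefSeq promoter windows of 300 bases (250 before the transcript start to 50 after it, build GRCm38.p6) were searched on both strands for CCAAT, the core bound by NF-Y, and for TCACNCCAC, the letters of the classical sterol response element (SRE). CCAAT stood in 14 of 16 lower sterol synthesis genes with a window (87.5%), against 42.8% of 10332 measured genes with a window. Ggps1, which was not lower, held it too. The SRE letters stood in 1 of the 16, Hmgcs1, against 1.44% of measured genes. The 170 bases before the start are printed 5′ to 3′ on the gene's strand for Hmgcs1, which holds both motifs, and for Msmo1 and Nsdhl, which hold several CCAAT matches, with matches on either strand in capitals (ATTGG is CCAAT on the other strand).
Hmgcs1, chr13:119690181-119690350, plus strand: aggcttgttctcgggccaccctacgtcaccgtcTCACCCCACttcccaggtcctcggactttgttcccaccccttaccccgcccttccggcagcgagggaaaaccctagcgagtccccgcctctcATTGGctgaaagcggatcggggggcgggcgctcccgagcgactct
Msmo1, chr8:64733579-64733748, minus strand: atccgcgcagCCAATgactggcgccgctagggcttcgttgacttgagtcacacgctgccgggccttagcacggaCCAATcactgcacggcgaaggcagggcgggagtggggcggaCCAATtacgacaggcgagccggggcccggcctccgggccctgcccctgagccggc
Nsdhl, chrX:72918351-72918520, plus strand: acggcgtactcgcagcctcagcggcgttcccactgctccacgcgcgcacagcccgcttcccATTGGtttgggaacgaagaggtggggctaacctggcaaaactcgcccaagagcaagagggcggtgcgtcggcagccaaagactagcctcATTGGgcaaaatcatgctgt
In Hmgcs1 the SRE letters begin at position -137 from the start and the nearest CCAAT match before the start at -45. A match is a run of letters and not a measured binding site.

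Regulators differed among themselves. Insig1, the sterol-sensitive anchor of SCAP, had 1.52 in control and -0.65 with LDL (4.51-fold lower), while its relative Insig2 had 2.95 and 2.99. Srebf2 differed by -1.32 (1.39 and 0.07) and Srebf1 by -0.53. The cytosolic sterol carrier Stard4 differed by -2.20 and Tmem97, a binding partner of NPC1, by -1.15. The processing machinery lay near 0, with Scap at 0.02, the protease genes Mbtps1 at -0.15 and Mbtps2 at 0.37, and the ligase gene Rnf139 at 0.02. Npc1 (0.06) and Npc2 (-0.22), which export cholesterol from lysosomes, also lay near 0. Mylip, a ubiquitin ligase gene induced by LXR, was higher by 0.51, short of 1.5-fold. In all 5 of 15 measured genes of this list were lower at 1.5-fold, none higher.

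Fatty acid synthesis was lower in 10 of 24 measured genes and higher in none, with a median of -0.56. Elovl6, which elongates palmitate, stood at 2.87 in control and 0.89 with LDL. The suppliers of acetyl-CoA differed by -1.44 (Acss2) and -0.96 (Acly), Aacs by -1.29, the synthase Fasn by -1.22 and the carboxylase Acaca by -0.75 (-0.42 for its second probe). The desaturases Scd1 and Scd2 both differed by -1.20, from 1.94 to 0.75 for Scd1 and from 7.22 to 6.01 for Scd2. Fads2 differed by -0.72 and Acsl3 by -1.15. Set beside this, the 22 sterol synthesis genes had a median of -2.18.

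Genes that handle excess sterol and lipid showed few differences. Abca1, which exports cholesterol to apolipoproteins, had 0.41 in control and 1.30 with LDL (1.85-fold higher), and Ch25h, the cholesterol 25-hydroxylase, had -2.50 and -4.0. These were the only members past 1.5-fold among 18 measured genes of LXR targets, oxysterols and efflux (median -0.07). After normexp Ch25h (-0.57) was just short of 1.5-fold. Abcg1 was not above background on either WT array. Among scavenger and lipoprotein receptors 4 of 16 were lower, among them Lrp8 (-0.99, levels -2.36 and -3.35), Cxcl16 (-0.75) and Stab2 (-0.66, levels -1.99 and -2.64). The dim genes Lrp8 (-0.39) and Stab2 (-0.33) were short of 1.5-fold after normexp, and Cxcl16 (-0.61) was not. Cd36, Msr1, Olr1 and Marco were not above background on either WT array. Of 18 lipid droplet genes G0s2, an inhibitor of the lipase ATGL, was 1.05 higher and Fitm2 was lower (-0.65). After normexp Fitm2 (-0.37) was short of 1.5-fold. The droplet coat Plin2 had 4.66 and 4.72. Of 26 PPAR targets and fatty acid oxidation genes Angptl4, an inhibitor of lipoprotein lipase, was 2.08-fold higher (4.93 and 5.99), Fabp4 was 0.69 higher and Vnn1 was lower (-0.80). Lpl itself had -0.41 and -0.38.

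The interferon response held the largest number of lower genes. Of 94 genes on the list 89 had a named probe and 71 were measured. Of these 71, 40 were lower at 1.5-fold, 28 at 2-fold, and 1 was higher, with a median of -0.76. Usp18, the protease that removes ISG15 from proteins, had 0.87 in control and -2.49 with LDL (10.3-fold lower). Isg15, the ubiquitin-like modifier itself, had 3.21 and -0.01, and its second probe, above background in control only, pointed the same way. Rtp4 stood at 2.75 and -0.58. Among nucleic acid sensors Zbp1 had 0.02 and -3.11 and Dhx58 -0.15 and -2.79, while Ddx58, which encodes RIG-I, differed by -0.74, Ifih1 by -0.55 and Eif2ak2 by -0.76.

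**Figure D3:**
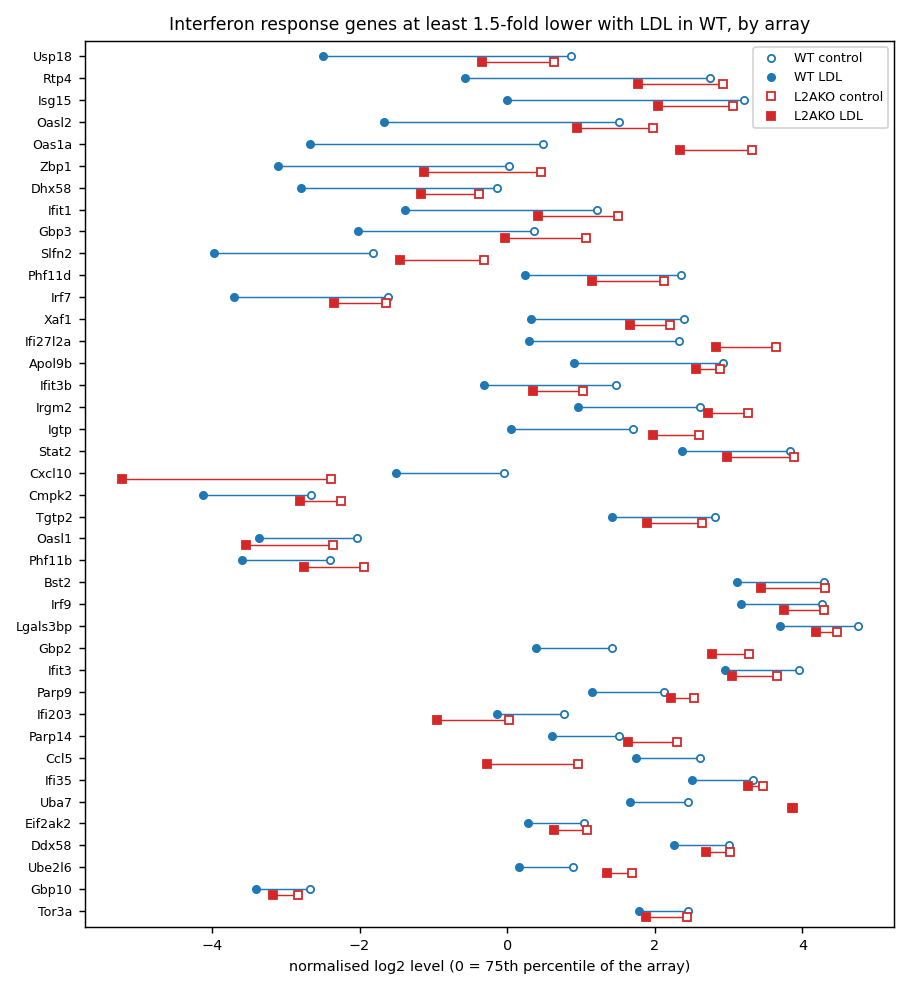
Normalised log2 level on each of the 4 arrays for the 40 interferon response genes that were at least 1.5-fold lower with LDL in WT, ordered by that difference, with control open and LDL filled. The gap between WT circles runs from -3.36 (Usp18) to -0.66 (Tor3a), and the L2AKO squares of most of the upper genes lie closer together.

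The oligoadenylate synthetases, which activate RNase L, were lower in 3 of 4 measured genes of the list: Oasl2 (1.51 and -1.67), Oas1a (0.48 and -2.67) and Oasl1 (-1.32), with Oas1c at -0.54. Interferon-inducible GTPases were lower in 6 of 9, led by Gbp3 (0.36 and -2.03), Irgm2 and Igtp (both -1.65) and Tgtp2 (-1.41), while Irgm1 differed by -0.37. Ifit1 had 1.22 and -1.39, whereas Ifit3 differed by -1.0 and Ifit2 was higher by 0.26. The transcription factors of the pathway were lower too: Irf7 by -2.09, Stat2 by -1.47 (3.84 and 2.37) and Irf9 by -1.10 (4.27 and 3.17), but Irf1 by only -0.34. Ifit1bl1, a dim gene at -2.62 and -1.81, was the 1 higher member. Tor3a, with the smallest of the 40 lower differences, had a second probe at 0.07. Several of these families have near-identical copies (Oas1, Ifit3, Phf11, Apol9, Tgtp), so a probe may read more than 1 of them. Other members were above background on 1 array, and their difference is a limit set by the lowest signal well above background on the other array, or by the dim probe's own level where that was higher. In control only were, among others, Oas2 (at least 4.29-fold lower), Ifi44 (4.12), Slfn8 (4.07), Rsad2 (2.02) and Tgtp1 (1.95), each as a lower limit, and with LDL only was Ddx60 (at least 2.92-fold higher).

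The promoters of lower interferon genes often held the core letters of the ISRE, GAAA and again GAAA with any pair of bases between them, searched on both strands with overlapping matches kept. It stood in 18 of 30 lower genes with a window (60%), in 10 of 26 measured list members that were not lower (38.5%), and in 3.56% of all 10332 measured genes. Among strongly lower genes with a window, Slfn2 (-2.15) and Phf11d (-2.12) lacked the letters. Promoters of some strongly lower genes that hold them are printed in the same way as above. The ISRE letters are in capitals (runs that begin with TTTC are matches on the other strand).
Isg15, chr4:156200819-156200988, minus strand: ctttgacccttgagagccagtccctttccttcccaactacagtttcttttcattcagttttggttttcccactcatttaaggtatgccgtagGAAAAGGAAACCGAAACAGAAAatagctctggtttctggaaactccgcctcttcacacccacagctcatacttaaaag
Ifit1, chr19:34640719-34640888, plus strand: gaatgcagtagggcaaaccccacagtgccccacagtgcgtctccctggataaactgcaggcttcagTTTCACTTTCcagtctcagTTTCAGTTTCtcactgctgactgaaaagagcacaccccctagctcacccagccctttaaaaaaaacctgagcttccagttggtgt
Gbp3, chr3:142559874-142560043, plus strand: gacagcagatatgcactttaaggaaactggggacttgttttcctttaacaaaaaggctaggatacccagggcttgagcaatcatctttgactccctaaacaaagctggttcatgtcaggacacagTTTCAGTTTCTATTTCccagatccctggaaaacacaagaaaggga
Oas1a, chr5:120907526-120907695, minus strand: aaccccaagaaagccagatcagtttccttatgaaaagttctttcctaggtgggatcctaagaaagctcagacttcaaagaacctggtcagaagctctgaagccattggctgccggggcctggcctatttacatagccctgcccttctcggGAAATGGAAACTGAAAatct
In Isg15 the 3 matches overlap and begin at positions -78, -72 and -66. In Ifit1 they begin at -104 and -85 on the other strand. Of all 230 genes lower at 1.5-fold with a window, 31 held the ISRE letters (13.5%), against 5 of 124 higher genes (4.03%). The 31 include the 18 interferon response genes already counted. The kappa-B letters (GGG, any pair of bases, TTTCC) stood in 8 of the 230 (3.48%) against 1.96% of measured genes.

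**Figure D4:**
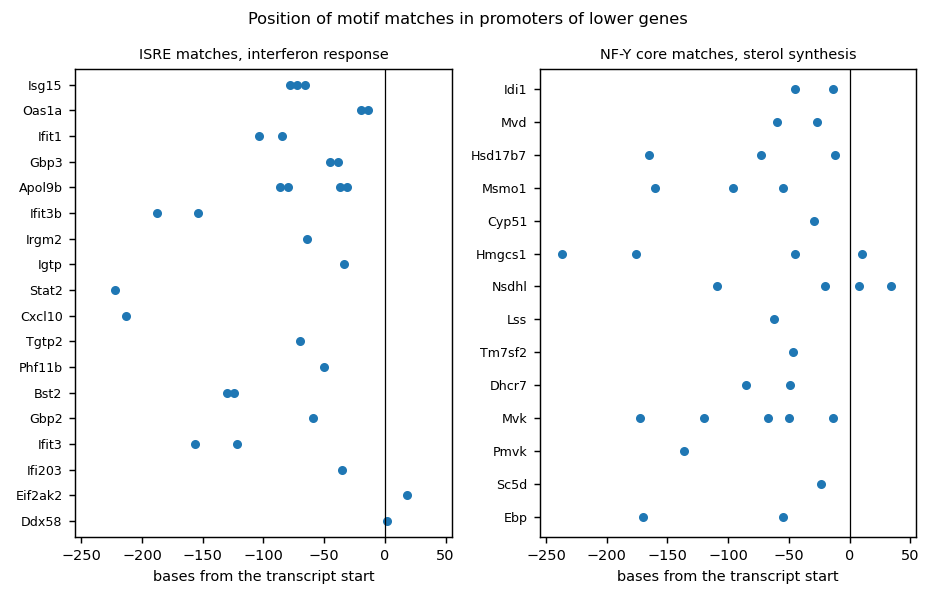
Positions of matched letters relative to the transcript start, for ISRE letters in lower interferon response genes (left) and CCAAT in lower sterol synthesis genes (right), with genes ordered by their WT difference. Matches lie mostly before the start, such as -78, -72 and -66 in Isg15 and -45 in Hmgcs1, and each row is 1 of the 18 and 14 genes that hold the letters.

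The measured genes upstream of the interferon response did not show differences of this size. Of 18 measured genes of interferon ligands, receptors, JAK kinases and adaptors, none differed by 1.5-fold (median -0.10). Among the ligands, Ifnb1 and Ifng were above background on neither WT array and Ifna2 with LDL only. Ifna1 (-3.58 and -3.66) and Ifnl3 (-2.40 and -2.21) were measured but dim, so these values do not show if ligand RNA differed. Ifnar1 differed by -0.13, Ifnar2 by -0.26, Jak1 by -0.07, Tyk2 by 0.18, the DNA sensor Cgas by -0.09 and Sting1 by -0.11. The feedback inhibitor Socs1 was the lowest of them at -0.56. Antigen presentation, which interferons induce, was lower in 6 of 21 genes (median -0.40). The immunoproteasome subunits Psmb8 (-0.87 and -2.25) and Psmb9 (0.29 and -0.81) led, followed by the class I heavy chain H2-K1 (-0.95, and -0.48 for its second probe). The activator Nlrc5 (-0.69), Erap1 (-0.66) and Tapbp (-0.64) came next. After normexp Nlrc5 (-0.24), Erap1 (-0.27) and Tapbp (-0.57) were short of 1.5-fold. Nlrc5 (-2.39 and -3.08) and Erap1 (-2.37 and -3.03) were also dim. Of 26 constitutive proteasome genes none differed by 1.5-fold, with a median of -0.10.

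Acute phase genes held the largest single difference among genes above background on both arrays. Saa3, a serum amyloid A made outside the liver, had 5.93 in control and 1.54 with LDL (21.0-fold lower). Lcn2, which encodes an iron-siderophore binding protein, had 3.06 and -0.99 (16.5-fold lower), and Saa1 had 3.55 and -0.30. Saa2 was above background in control only and at least 7.68-fold lower, and since Saa1 and Saa2 are near-identical the probes may not part them. Steap4, a metalloreductase, stood at -1.47 and -3.88, and Serpina3f at -1.74 and -3.26. The secreted proteins encoded by Cp (-1.04), Hp (-0.94), Lbp (-0.88) and Ptx3 (-0.75) differed less, and a second probe of Cp differed by only -0.11. In total 9 of 12 measured genes were lower at 1.5-fold, with a median of -0.99, and the other 3 were also below 0.

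Complement was lower in 6 of 19 genes (median -0.32). Cfb, factor B of the alternative pathway, had 0.10 and -2.75, and C3, the component on which all complement pathways meet, had 8.59 and 7.45. The C3 gene's second probe differed by -1.37. Clu, C1ra, C4b and C1s2 lay between -0.70 and -0.60, but the second probes of C1ra (-0.39) and C1s2 (-0.02) were short of 1.5-fold. Chemokines were lower in 9 of 19 (median -0.58). The neutrophil chemokines Cxcl5 (3.28 and 1.60) and Cxcl1 (5.41 and 3.76) and the monocyte chemokines Ccl2 (6.14 and 4.82) and Ccl7 (5.57 and 4.25) were bright in control and stayed above the 75th percentile with LDL. Cxcl10 and Ccl5, which the interferon list also holds, differed by -1.46 and -0.86. Ccl8 (-1.62) was dim, and the higher member Ccl17 had -4.03 and -3.39, near the lowest level above background. Ccl11, the eosinophil chemokine, was above background in control only and at least 3.46-fold lower.

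The wider NF-kappa-B list held fewer. Of 37 measured genes 3 were lower, Il6 (-0.83, levels -1.29 and -2.12), Relb (-0.66) and Bcl3 (-0.63), and none higher, with a median of -0.16. After normexp Il6 (-0.50) and Bcl3 (-0.55) were short of 1.5-fold, and Relb (-0.62) was not. Sod2 differed by -0.55, Tlr2 by -0.49, Vcam1 by -0.48, the inhibitor gene Nfkbia by -0.39, Icam1 by -0.09 and Ptgs2 by 0.27. Tlr4, the receptor for endotoxin, had -0.19 and -0.05. The 3 macrophage markers measured on both arrays differed by -0.19 to -0.12, and their part in the inflammatory differences was not tested.

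Few groups were higher with LDL. Of 22 measured glutathione S-transferases 4 were higher and 1, Gstt2, was lower (-0.68), with a list median of 0.17. Gsta2 had -3.19 in control and -1.15 with LDL (4.11-fold higher), Gsta4 had -1.18 and 0.61 (3.46-fold), Gsta3 had 0.17 and 1.45 (2.44-fold) and Gstm4 had 2.01 and 2.64. A second probe of Gsta3 differed by 1.27, but that of Gstm4 by -0.22, the other way. Of genes above background on both arrays the highest differences belonged to Gm10639 (-2.13 and 0.14) and Gm3776 (-1.81 and 0.38), which follow Gsta4 and Gsta1 in the RefSeq gene order of chromosome 9 and come before Gsta2. The genes of this cluster resemble each other, so it is uncertain how many of them the probes read. All 3 higher Gst genes with a promoter window held CCAAT, as did 14 of all 20 with a window, and the antioxidant response letters (TGAC, any 3 bases, GCA) stood in 1 of the 3, Gsta3, against 3.24% of measured genes.

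The NRF2 targets as a list lay near 0 (median 0.04), with 3 of 38 measured genes higher and 1 lower. Nqo1, the quinone reductase, had 0.83 and 1.55, the transporter Abcc4 had 2.78 and 3.5, and Ugt1a6a had -3.13 and -2.44, while Abcc3 was lower (-0.80). Hmox1 (0.47), Gclc (0.56), Gclm (0.50), Txnrd1 (0.43) and Srxn1 (0.34) were above 0 and short of 1.5-fold. A second, dimmer probe of Hmox1 (1.00 and 1.87) differed by 0.87, which is past 1.5-fold. Dhrs3, a retinaldehyde reductase that the retinoic acid receptor induces, had 3.40 and 4.48 (2.11-fold higher). Rarb (0.86) and Cyp26b1 (0.64), a receptor and a hydroxylase of retinoic acid, were higher as well, and Rdh11 was lower (-1.01), so 3 of 15 retinoid genes were higher and 1 lower. Slc40a1, the iron exporter ferroportin, was 0.91 higher, the pyrophosphate transporter gene Ank 0.73 higher and the tight junction gene Cldn1 0.95 higher at levels of -2.92 and -1.98.

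Among the other lists, Col3a1, a fibrillar collagen, stood out with 0.76 in control and -1.39 with LDL (4.44-fold lower). In L2AKO cells the same probe read 6.91 and 7.04, so its level in either WT culture was far below that of the L2AKO cultures. Col8a2 (-1.25) and Col5a3 (-0.78) were also lower, and the other 19 of 22 measured collagens were not past 1.5-fold. Ccn3, a matricellular gene, was lower at -1.99 and -3.26, and Ccn5 differed by -0.60. Aldoc, a glycolytic aldolase, had 3.18 and 1.14 (4.10-fold lower), and Slc16a3, the lactate exporter, differed by -0.81, while glycolysis as a list had a median of -0.27 with 2 of 21 lower. Outside the lists were Chil1, a chitinase-like secreted protein (-0.90 and -3.81), the glucose transporter gene Slc2a6 (0.15 and -2.22), the protease inhibitor gene Slpi (-0.76 and -2.99) and Mtag2 (-1.12 and -3.80).

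In 16 of the 45 lists no measured gene differed by 1.5-fold. They include contractile smooth muscle (18 genes, median -0.09), elastic fibre and crosslinking (24, -0.08), lysosome (54, -0.15), macroautophagy (32, -0.06), chaperone-mediated autophagy (20, 0.01), DNA replication (31, -0.12), cell cycle and mitosis (24, -0.07), heat shock (16, 0.04), TGF-beta and BMP (31, -0.01) and the respiratory chain (33, -0.12). The signs of these medians turn without the 0.22 scaling shift, except those already above 0. Acta2, the smooth muscle actin, had 7.39 and 7.21, Tagln 3.62 and 3.45 and Cnn1 0.31 and 0.35. Lamp2 had 6.29 and 6.38, and Hspa8, the chaperone of chaperone-mediated autophagy, had 7.83 and 7.66. Actb (-0.09) and Gapdh (-0.26) differed little. Of 38 genes of the unfolded protein and integrated stress response 1 was lower, Aldh1l2 (-0.61), and the list median was -0.19.

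**Figure D5:**
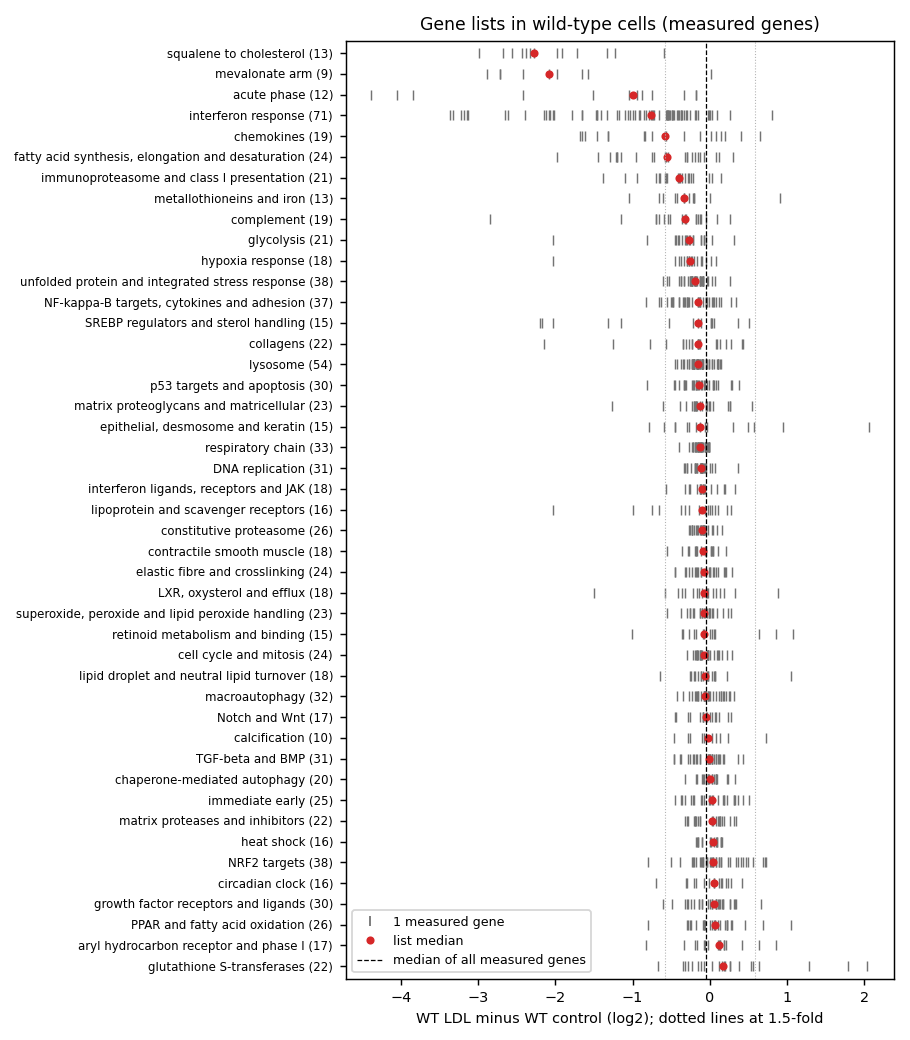
Log2 differences (WT LDL minus WT control) of the measured genes of 45 lists, 1 tick a gene, with list medians in red, the number measured in brackets and the dashed line at the median of all genes (-0.05). Medians at or past 1.5-fold lower belong to 4 lists, squalene to cholesterol (-2.27), mevalonate arm (-2.08), acute phase (-0.99) and interferon response (-0.76), and the glutathione S-transferases have the highest at 0.17.

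Another 749 genes were above background on 1 WT array only, 439 with LDL and 310 in control. Their differences are limits as defined for Oas2 (the lowest signal well above background was -4.23 in control and -4.40 with LDL). By this measure the limit was 2-fold or more for 102 higher and 138 lower genes. Ccn6, a matricellular gene, had a level of 0.93 with LDL and was at least 35.7-fold higher than in control, where it was not well above background. Asb11 was at least 9.17-fold higher, Olfr873 5.93-fold and Bglap, which encodes osteocalcin, 5.11-fold. On the lower side Reg4 (at least 10.6-fold), Minar1 (8.55-fold) and Napsa (8.35-fold) led. Ccn6, Olfr873, Reg4, Minar1 and Napsa were not measured in L2AKO cells, and each has 1 spot on an array, so a flaw of that spot cannot be told from a difference in RNA.

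Probes without a gene name here numbered 8221 above background on both WT arrays, of which 41 were higher and 81 lower by 2-fold or more. A pair of them that the array design places at chr9:78107225-78118850 (mm9) differed by 2.10 and 2.09. The widest lower difference among unnamed probes was -3.19, from 0.76 to -2.43.

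The L2AKO cells received the same treatment, but their LDL array lay on another slide than the other 3 arrays, so slide and treatment cannot be told apart there and no difference between the genotypes was tested. Of 12492 genes measured in both genotypes, 119 were at least 2-fold lower with LDL in WT and 138 in L2AKO, and 60 in both, which is 50.4% of the WT genes and 43.5% of the L2AKO genes. Of the 119 WT genes, 105 were below 0 in L2AKO and 85 were at least 1.5-fold lower there. The L2AKO median of all 12492 genes was -0.08, so more genes than not lay below 0. At least 2-fold higher were 24 in WT and 105 in L2AKO, and 4 in both (16.7% and 3.81%). Of all 13008 genes measured in L2AKO, 121 (0.93%) were higher and 173 (1.33%) lower by 2-fold, and 434 (3.34%) were higher and 592 (4.55%) lower by 1.5-fold.

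In sterol synthesis 21 of 22 genes were lower at 1.5-fold in either genotype and medians of -2.18 in WT and -1.93 in L2AKO. In the interferon response 30 of 78 genes measured in L2AKO were lower, with a median of -0.50. Of the 70 interferon genes measured in both, 55 had the lower difference in WT (78.6%), against 46.0% of all genes measured in both. Such a share was not particular to this list. It was 79.2% for cell cycle and mitosis (19 of 24), 75% for elastic fibre and crosslinking (18 of 24) and 72.7% for collagens (16 of 22). Other lists lay below the share of all genes, such as NF-kappa-B (27.8%) and the circadian clock (21.4%). Rtp4 differed by -1.15 in L2AKO, Isg15 by -1.02, Usp18 by -0.99 and Oas1a by -0.97, each with an L2AKO level with LDL above the WT level with LDL. Apol9a, an interferon-inducible apolipoprotein, showed -1.87 in WT and -0.13 in L2AKO. The acute phase median was -0.99 in WT and -1.54 in L2AKO, although 6 of 12 genes had the lower difference in WT. Of NF-kappa-B genes 13 of 38 were lower in L2AKO and 3 of 37 in WT, with Il6 at -1.89 and Sod2 at -1.14. Of the higher genes, Gsta2 differed by 1.84 in L2AKO, Gm10639 by 1.45, Gm3776 by 1.15 and Gsta4 by 0.56, while Abca1 differed by 0.23 and Angptl4 by 0.40.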

How the data were processed

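Total RNA of mouse vascular smooth muscle cells was labelled with Cy3 and hybridised to Agilent Mouse 8x60K arrays with 1 colour, 1 array a group. Per the file headers, the deposited scanner files hold a spot intensity on a linear scale. The file headers name Agilent Feature Extraction 10.7.3.1, and the processed signal was already background-subtracted by that software. The deposited value table was used as an alternative only. Its values rank like the median spot intensity (rank correlation 1.00), its medians lie between 57.4 and 57.6, and how it was centred and scaled is unknown; RMA and oligo are named in the submitters' processing notes.

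Spots of a probe were averaged on the log2 scale, without control and outlier spots. Probes were named through RefSeq accessions of build GRCm38.p6, which gave 28330 of 55679 probes 1 of 21367 genes and left 27349 unnamed. The probe with the highest mean level over the 4 arrays stood for a gene, and second probes are given for some genes, including those named whose second probe fell short of a 1.5-fold call. A gene is called not above background only where this holds for all its probes. Differences of at least 2-fold (genes) or 1.5-fold (list members) were counted, with no test. The gene lists, the markers and the rule for naming genes were chosen with earlier results of these data known. The rule named, of genes past 2-fold that also differed by 1.5-fold after normexp, up to 25 a direction (25 lower and 18 higher), all sterol genes, up to 8 genes of each other list and up to 10 genes a direction above background on 1 array. Further list members that the text names, and Mmab, Apol9a, Slc2a6 and Slpi, were chosen after their values were seen. Some members are not reported here by name. The steps were tested on simulated data. The alternatives were other scalings, limma's normexp with an offset of 50, the deposited table, other filters and other probe rules. Tools were Python 3.11.15 (pandas 2.3.3, numpy 2.4.6, matplotlib 3.10.9) and limma 3.58.1 in R 4.3.3.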

Additional observations from a re-analysis of the deposited data

Results flagged for a closer look

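Of the genes named by the rule and measured on all 4 arrays, 2 were at least 1.5-fold different in WT and at least 1.5-fold different the other way in L2AKO. Krtap1-4, a hair keratin-associated gene, had a log2 difference with LDL of 2.07 in WT and -1.25 in L2AKO. Stab2, a hyaluronan and scavenger receptor of sinusoidal endothelium, had -0.66 in WT and 0.65 in L2AKO. Both genes were dim, with levels from -3.30 to -1.23 for Krtap1-4 and from -2.64 to -1.99 for Stab2 in WT, and neither difference between the genotypes was tested, since each group had 1 array and the L2AKO LDL array lay on another slide. Another 2 genes, named for being above background on 1 WT array only, also went opposite ways, with limits in place of differences. For Asb11 the limits were 3.20 in WT (above background with LDL only) and -3.18 in L2AKO (above background in control only). For Bglap the limit was 2.35 in WT, and the difference measured in L2AKO was -0.92. These were not tested either.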

How the results depend on the processing

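The number of genes at least 2-fold higher was 32 and depended on how dim probes were treated. It was 75 without scaling, 8 after normexp and quantile normalisation, 9 in the authors' deposited values, 5 without the dimmest 25% of genes, 254 with genes above background on at least 1 WT array and 550 without a filter. The number at least 2-fold lower was 133, and it was 82 after normexp, 86 in the deposited values, 71 without the dimmest 25%, 348 with genes above background on at least 1 WT array and 807 without a filter. The higher genes made up 19.4% of calls, 42.6% without scaling, 8.89% after normexp, 9.47% in the deposited values, 42.2% and 40.5% under the looser filters and 6.58% without the dimmest genes. The cause was not tested beyond the construction of these settings. Counts under the other scalings, the filter on all 4 arrays and the other probe rules lay within 1.5 times of these. Of 132 named genes past 1.5-fold, all with a value kept their sign under each of 12 settings. For the other filters, which leave each value unchanged, this was fixed beforehand. It was also fixed for the scalings that shift all genes by 1 constant, of at most 0.22. After normexp 105 stayed past 1.5-fold, of which 43 had been named on that condition. Of the other 89, 62 stayed past 1.5-fold. Of list members at least 1.5-fold lower, 25 had a second measured probe, which was past 1.5-fold the same way for 16, short of it for 7 and of the other sign for 2. List medians ranged from -2.20 to -1.60 for the mevalonate arm, -2.33 to -2.05 for squalene to cholesterol, -0.84 to -0.54 for the interferon response and -1.04 to -0.20 for acute phase genes. Differences near the lowest level above background are the least precise. No paired analysis was possible because each group has 1 array and no replicate.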
